A study of Mus musculus with 6 samples.

Results

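The Dlk1 Meg3 imprinted cluster of mouse chromosome 12 was examined through its 6 named genes, Dlk1, Meg3, Rtl1, Rian, Mirg and Dio3. All 6 were located by their RefSeq spans in GRCm38.p6, the assembly of the mm10 build used for the data, and every table position from 5000 bases before to 5000 bases after a span was taken once. This gave 266 cytosine positions, against 24660 on the rest of chromosome 12, from the table rows before row 390209, where the columns go out of register. The genes are 6 of 13308 protein-coding or lncRNA genes with at least 1 position in such a window. Of the 266 positions, 122 had a value in all 6 libraries and are called complete here, of 272327 complete positions in all usable rows.

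The libraries came from intestinal organoids, cultures of gut epithelium grown as small three-dimensional bodies. All 6 libraries carried the Apc Min genotype, a truncating mutation of the Wnt pathway inhibitor Apc, and all were kept in low glutamine medium. DM-aKG was given to 3 biological replicates, and 3 biological replicates had the control treatment. DM-aKG is known as a cell-permeable ester of α-ketoglutarate, which TET dioxygenases consume when they oxidise methylated cytosine. Neither its dose and duration nor the age of the source mice was in the labels. DNA methylation was read by reduced representation bisulfite sequencing, which samples CpG-rich fragments, and the table gives the percent of methylation at each cytosine. Values from 1 to 39 do not occur in it, so a 0 means either a level under 40% or no call and was treated as no value. The table holds no read counts, so the depth behind each level is unknown. The libraries are bulk DNA, in which a mixture of methylated and unmethylated alleles within cells cannot be told apart from a mixture of cells.

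The cluster is a textbook example of genomic imprinting. On the chromosome inherited from the father the protein genes Dlk1, Rtl1 and Dio3 are expressed, and on the maternal chromosome the noncoding genes Meg3, Rian and Mirg are, together with many microRNAs and small nucleolar RNAs processed from them. Expression is set by an intergenic control region between Dlk1 and Meg3 that carries methylation on the paternal allele, and the promoter of Meg3 acquires paternal methylation later in development. An imprinted region that is methylated on a single allele is expected to read at an intermediate level in bulk DNA.

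The Meg3 promoter is shown because it was the promoter among the members with table positions in it. RefSeq promoter sequences, each with 250 bases upstream of a start and 50 downstream, were given for 5 of the 6 genes. The Meg3 sequence lies on the plus strand of chr12:109540746-109541045 (GRCm38.p6), and it is printed 5′ to 3′ with capitals at the 10 of its 13 CpG pairs that hold a position of the table.
Meg3 promoter: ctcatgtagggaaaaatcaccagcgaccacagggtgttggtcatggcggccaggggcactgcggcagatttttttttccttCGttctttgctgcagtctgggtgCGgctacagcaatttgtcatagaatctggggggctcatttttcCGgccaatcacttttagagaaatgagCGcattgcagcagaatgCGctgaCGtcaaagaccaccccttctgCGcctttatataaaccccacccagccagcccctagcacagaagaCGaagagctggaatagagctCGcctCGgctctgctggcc
The other starts gave no values. The Dio3 promoter has 25 CpG pairs, that of Mirg 10 and that of Dlk1 9, and none of them held a position of the table. The Rian promoter has 0 CpG pairs. A promoter without positions may be unmethylated or unread, which these values do not separate.

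The Meg3 promoter stood at an intermediate level in all 6 libraries, and the inside of the gene was close to fully methylated. Of 65 values in the promoter, at 17 positions, 53 were under 60%, 8 were from 60% to under 80% and 4 were exactly 100%. Averaged over the positions each library had, the promoter level was 57.5%, 57.4% and 54.1% in DM-aKG replicates 1, 2 and 3, and 49.5%, 48.1% and 51.0% in control replicates 1, 2 and 3. The 3 DM-aKG libraries lay above the 3 controls, with 56.3% ± 1.94 against 49.5% ± 1.46 (SD, n = 3 each, exact two-sided permutation p = 0.1, the smallest that 3 against 3 allows). That separation rested on 2 positions, at -168 and -145 bases from the start, which were at 100% in DM-aKG replicates 1 and 3 and without a value in the other 4 libraries. Without them DM-aKG replicates 1 and 3 were at 46.9% and 46.4%, below the controls. DM-aKG replicate 2 stayed above the controls at 57.4%. Over the 15 positions valued in at least 1 library of each group the level was 50.2% ± 6.2 with DM-aKG and 49.5% ± 1.46 in controls, a difference of 0.698 percentage points (SD, n = 3 each, exact permutation p = 1). Because levels under 40% are absent from the table, all of these means lie above the true mean wherever such levels occurred.

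**Figure D1:**
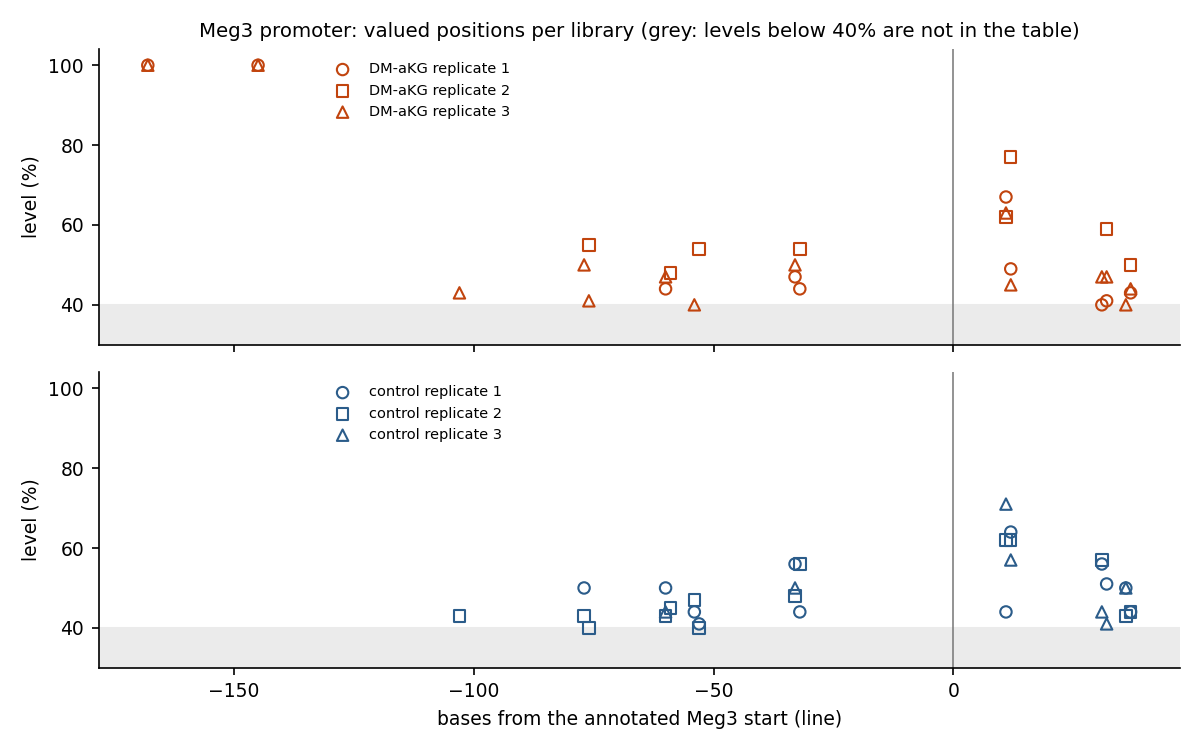
Methylation level (%, vertical axis, from 30) of each valued position against its distance in bases from the annotated Meg3 start (horizontal axis), with DM-aKG libraries in the upper panel and controls in the lower one; each symbol is 1 position in 1 library. Most values lie between 40% and 60% in both groups, and the 4 values of 100% belong to DM-aKG replicates 1 and 3.

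The positions nearest the Meg3 start had values in every library. The cytosine 11 bases after the start, at chr12:109541007, was at 67%, 62% and 63% in DM-aKG replicates 1, 2 and 3 and at 44%, 62% and 71% in control replicates 1, 2 and 3. Its partner on the opposite strand, at 109541008, was at 49%, 77% and 45% with DM-aKG and at 64%, 62% and 57% in controls. These 2 were the complete positions of the promoter, and at both the groups overlapped. The letters TGACGTCA, the palindromic cyclic AMP response element, begin 57 bases before the start and contain 2 table positions. The first of these was at 40% in DM-aKG replicate 3 and at 44% and 47% in control replicates 1 and 2, and the second was at 54% in DM-aKG replicate 2 and at 41% and 40% in control replicates 1 and 2, with no value elsewhere. That motif is found in 1.79% of the 32851 RefSeq promoters. The letters TGCCGC, known as the core of the ZFP57 binding motif that protects methylation at imprinted regions, were looked for on both strands and found once, on the minus strand 190 bases before the start, where no position was in the table; 11.6% of promoters hold them. These matches describe the letters of the window and do not show binding.

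Inside Meg3 the level was high in both groups. Over the positions each library had between the promoter and the end of the gene, the mean was 92.5% ± 1.15 with DM-aKG and 90.0% ± 1.74 in controls (SD, n = 3 each, exact permutation p = 0.2). The densest group, 26 positions at chr12:109549676-109549912 centred 8.80 kb into the gene, had 23 complete positions at 93.6% ± 1.15 with DM-aKG and 92.0% ± 1.59 in controls. Nearer the start, the 7 complete positions of chr12:109545909-109546537 were at 91.7%, 92.4% and 89.3% in DM-aKG replicates 1, 2 and 3 and at 74.0%, 88.4% and 87.4% in control replicates 1, 2 and 3. The groups did not overlap there, and the difference of 7.86 points had a 95% interval of -1.01 to 16.7 (limma adjusted p = 0.829). Control replicate 1 was the low library of that stretch. Across the whole Meg3 window the level of 37 complete positions was 91.3% ± 1.37 with DM-aKG and 88.8% ± 2.72 in controls, and the groups overlapped.

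**Figure D2:**
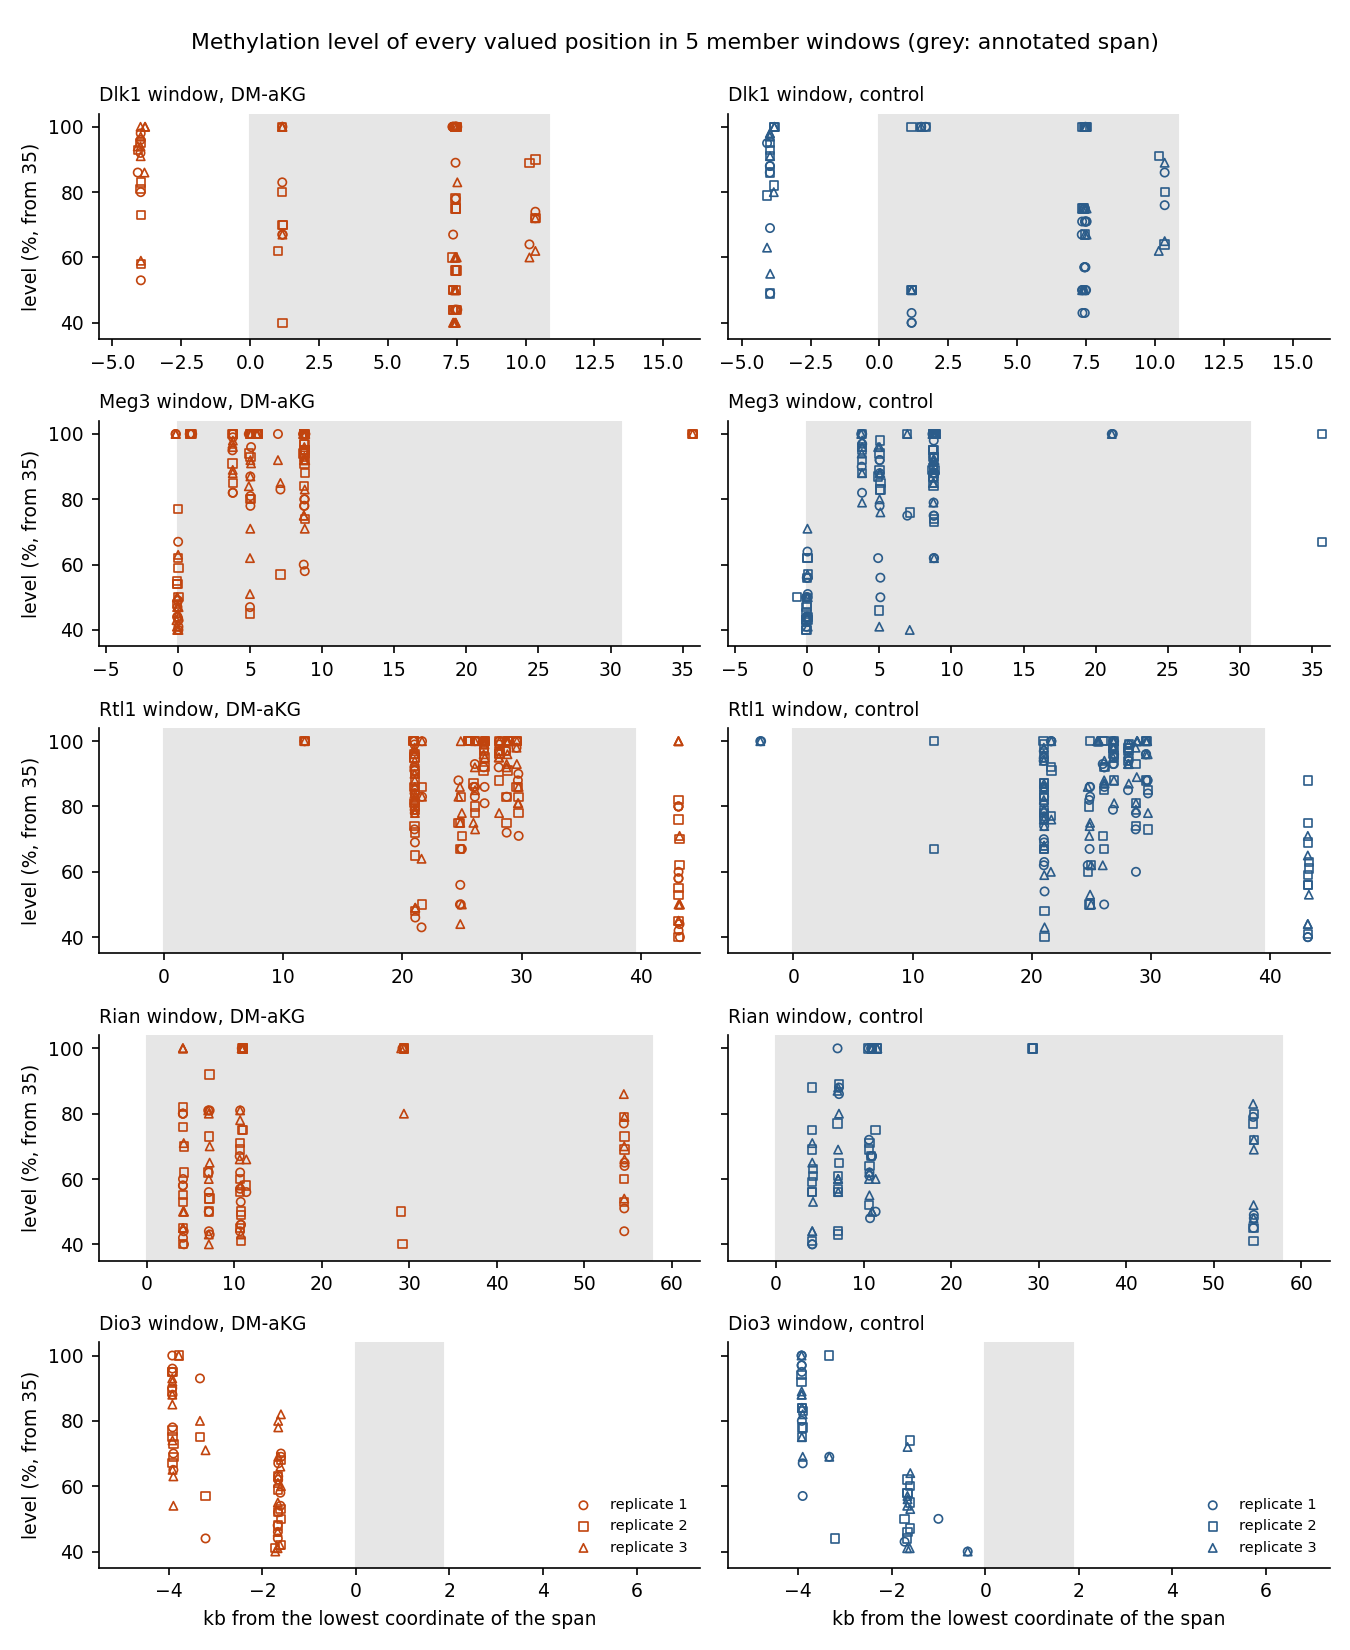
Methylation level (%, vertical axis, from 35) of every valued position against its distance in kb from the lowest coordinate of the gene (horizontal axis) in the windows of Dlk1, Meg3, Rtl1, Rian and Dio3, with DM-aKG libraries on the left and controls on the right; grey marks the annotated span and each symbol is 1 position in 1 library. Values near the start of Meg3 lie mostly between 40% and 60%, those further inside it mostly above 80%, and those of Rian are spread between 40% and 100%.

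The other maternally expressed genes had lower levels than the body of Meg3. Rian, which hosts small nucleolar RNAs and microRNAs, had 46 positions of which 15 were complete. Its level was 72.9%, 67.0% and 74.1% in DM-aKG replicates 1, 2 and 3 and 68.8%, 71.8% and 67.5% in control replicates 1, 2 and 3, so the groups overlapped. Both of its stretches with at least 3 complete positions lay inside the gene. The stretch at chr12:109614511-109615510 was at 79.3% ± 6.08 with DM-aKG and 72.8% ± 8.95 in controls over 7 complete positions. The stretch at chr12:109658461-109658541, near the far end, was at 68.0% ± 4.79 with DM-aKG and 63.9% ± 7.51 in controls over 4 (SD, n = 3 each). Both differences had intervals that include 0, with limma adjusted p of 0.834 and 0.874.

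Mirg, host of a large group of microRNAs, was covered by 1 position. That cytosine, at chr12:109749684 just past the annotated end of the gene, was at 62%, 56% and 82% in DM-aKG replicates 1, 2 and 3 and at 46%, 64% and 73% in control replicates 1, 2 and 3. The groups overlapped, and 1 position does not describe the gene.

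Dlk1, which encodes a membrane protein with epidermal growth factor repeats that is also known as a preadipocyte factor, was partly methylated. It had 46 positions, 16 of them complete, at 75.0%, 76.5% and 75.8% in DM-aKG replicates 1, 2 and 3 and 70.1%, 84.6% and 76.4% in control replicates 1, 2 and 3. The treated libraries lay inside the range of the controls. Most positions sat in a short block within the gene, at chr12:109459831-109460008. Its 6 complete positions were at 66.5%, 66.5% and 57.2% with DM-aKG and at 67.0%, 94.5% and 77.8% in controls, 16.4 points lower with DM-aKG (95% interval -32.0 to -0.753, limma unadjusted p = 0.0421, adjusted p = 0.829). When each library was averaged over all the positions it had in that block, the levels were 87.2%, 67.3% and 54.3% with DM-aKG and 59.8%, 92.3% and 73.9% in controls, and the groups overlapped. Upstream of the gene, 6 complete positions at chr12:109448404-109448674 were at 84.6% ± 4.35 with DM-aKG and 81.7% ± 2.29 in controls.

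Rtl1, a retrotransposon-derived protein gene needed for the placenta, held the most positions, 86 with 46 complete. Its window overlaps those of its neighbours and shares 4 positions with Meg3 and 10 with Rian, of which 0 and 2 were complete. Its level was 86.2%, 85.9% and 88.7% in DM-aKG replicates 1, 2 and 3 and 83.1%, 85.7% and 86.3% in control replicates 1, 2 and 3, and the groups overlapped. A transcript antisense to Rtl1 carries microRNAs that are known to target Rtl1 itself, and their hairpins are shown because they are the microRNA genes of the cluster in which methylation was read. Of 58 hairpins in the RefSeq table for the interval, 5 held a position. They were those of Mir337 and Mir3544, which overlap on opposite strands, and those of Mir431, Mir433 and Mir434. All 3 hairpins below lie on the plus strand, and capitals mark the CpG pairs with a position of the table.
Mir433, chr12:109591715-109591838: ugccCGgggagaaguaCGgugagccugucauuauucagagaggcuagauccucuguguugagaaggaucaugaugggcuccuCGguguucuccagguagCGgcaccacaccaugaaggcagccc
Mir434, chr12:109594506-109594599: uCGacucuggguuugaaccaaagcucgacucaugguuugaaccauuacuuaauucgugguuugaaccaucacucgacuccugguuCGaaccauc
Mir431, chr12:109590447-109590537: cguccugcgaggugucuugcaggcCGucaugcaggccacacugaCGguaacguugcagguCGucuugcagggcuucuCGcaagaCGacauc
The mature products carry the seed at bases 2 to 8, given here in capitals, and no other mature microRNA of the interval shared either seed.
mmu-miR-433-3p: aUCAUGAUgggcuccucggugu
mmu-miR-434-3p: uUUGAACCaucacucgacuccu

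Levels in the microRNA block differed between stretches, and the Mir433 and Mir434 hairpins were almost fully methylated. The Mir433 hairpin had 7 positions, all complete, at 94.1%, 96.1% and 98.4% in DM-aKG replicates 1, 2 and 3 and 93.7%, 96.1% and 94.3% in control replicates 1, 2 and 3. Of its 42 values 41 were at 80% or more, and the groups overlapped. The Mir434 hairpin had 2 complete positions at 94.0%, 93.0% and 90.5% with DM-aKG and 88.0%, 94.0% and 100% in controls. The Mir431 hairpin had 5 positions, valued in DM-aKG replicate 2 and control replicate 3 alone and at 100% wherever valued. The 2 positions in the overlapping Mir337 and Mir3544 hairpins were at 100% in DM-aKG replicates 1 and 2. They had no value in DM-aKG replicate 3 or any control, so neither was complete. Just past the Mir127 hairpin, 5 complete positions at chr12:109592982-109593048 were at 95.3% ± 2.30 with DM-aKG and 94.7% ± 2.19 in controls (SD, n = 3 each). Next to Mir337, chr12:109585818-109585977 was lower, at 85.1% ± 2.11 with DM-aKG and 81.2% ± 2.27 in controls over 13 complete positions, a difference of 3.92 points with a 95% interval of -1.68 to 9.53. Other stretches of the block were lower too. Before Mir431, 3 complete positions at chr12:109589602-109589890 were at 76.7% ± 13.5 with DM-aKG and 72.1% ± 7.65 in controls. Between Mir127 and Mir434, 3 complete positions at chr12:109593623-109593775 were at 88.0% ± 6.08 with DM-aKG and 79.7% ± 8.25 in controls (SD, n = 3 each), and in both stretches the groups overlapped.

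Dio3, at the far end of the cluster, encodes the deiodinase that inactivates thyroid hormone. Its window held 27 positions, 9 of them complete and all of those in 1 stretch before the gene, at chr12:110275303-110276015. The level was 86.1%, 79.4% and 77.1% in DM-aKG replicates 1, 2 and 3 and 84.7%, 85.3% and 82.7% in control replicates 1, 2 and 3, with overlap between the groups. Closer to the gene lay a group of 14 positions at chr12:110277506-110277628, where the mean over the valued positions was intermediate. DM-aKG replicates 1, 2 and 3 had 11, 9 and 13 of its 14 positions, with means of 57.5%, 52.9% and 60.2%. Control replicates 1, 2 and 3 had 1, 10 and 8, with means of 43.0%, 55.4% and 54.8%. Levels under 40% are absent from the table, so these means lie above the true mean wherever such levels occurred.

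The interval between the Dlk1 and Meg3 windows, in which the intergenic control region lies, was described apart from the members. The boundaries of that region are not in the reference used here, so no position was assigned to it. The interval held 34 positions, of which 22 were complete, at 89.5% ± 1.21 with DM-aKG and 89.7% ± 2.50 in controls (SD, n = 3 each, exact permutation p = 0.8). DM-aKG replicates 1, 2 and 3 had a value at 26, 25 and 23 of the 34 positions and control replicates 1, 2 and 3 at 31, 29 and 27, so fewer positions were valued with DM-aKG, without overlap. Among 6341 gene windows with at least 20 positions, 8.47% likewise had a share of valued positions wholly lower with DM-aKG. The group of positions nearest Meg3, 3 at chr12:109528603-109528605, had no value in any DM-aKG library, and was at 100% in control replicate 1 and at a mean of 89.0% in control replicate 3. The nearest stretch with at least 3 complete positions, at chr12:109526678-109526828, was at 89.1%, 95.9% and 88.7% in DM-aKG replicates 1, 2 and 3 and 93.4%, 100% and 86.1% in control replicates 1, 2 and 3. No complete position of the interval had a mean under 60%, the lowest position mean being 70.7%. Low levels are absent from the table, so a position with a low level in any library is not complete. Over all valued positions, the 7 at chr12:109481602-109481751 had lowest values of 42%, 43% and 93% in DM-aKG replicates 1, 2 and 3. In control replicates 1, 2 and 3 the lowest values there were 45%, 50% and 46%. The complete positions therefore do not show that intermediate levels were absent from the interval.

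**Figure D3:**
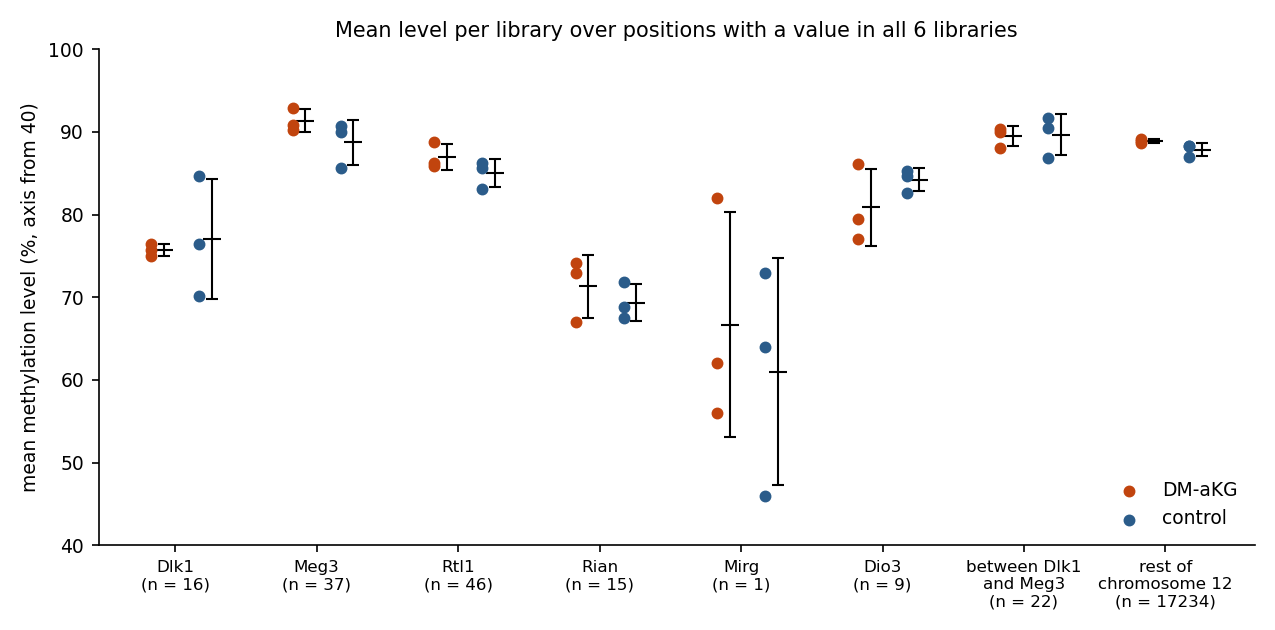
Mean methylation level (%, vertical axis, from 40) of each library over complete positions (n under each name) for the 6 members, the interval between Dlk1 and Meg3 and the rest of chromosome 12; points are libraries, DM-aKG left of control, and black bars give the mean and SD of 3 libraries. The groups overlap in all 6 members and separate in the rest of chromosome 12.

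Across the cluster the level was slightly higher with DM-aKG, by less than the spread of the controls. The 122 complete positions averaged 84.6%, 84.3% and 85.7% in DM-aKG replicates 1, 2 and 3 and 80.9%, 85.6% and 83.7% in control replicates 1, 2 and 3. That is 84.9% ± 0.725 with DM-aKG and 83.4% ± 2.35 in controls, 1.45 points higher (SD, n = 3 each, exact permutation p = 0.4). Without control replicate 1 the difference was 0.206 points, and without control replicate 2 it was 2.54 points. The rest of chromosome 12, 17234 complete positions, was at 88.9% ± 0.215 with DM-aKG and 87.9% ± 0.786 in controls, and there the groups did not overlap (exact permutation p = 0.1). Taken relative to the rest of the chromosome, the cluster stood at -4.03 ± 0.575 points with DM-aKG and -4.43 ± 1.68 points in controls, and this gap differed by 0.400 points between the groups (SD, n = 3 each, exact permutation p = 0.8).

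The cluster as a whole was below its chromosome in all 6 libraries, by 4.23 points on average (exact two-sided sign-flip p = 0.03125, the smallest that 6 libraries allow, a test added after the values were seen). Since all 6 differences were already known to be negative, that p was fixed at its floor. It concerns agreement among the libraries and does not show that the cluster is unusual among regions. Of the complete positions of the cluster 27.9% had a mean level from 60% to under 80%, against 17.2% on the rest of chromosome 12. A further 4.92% were under 60%, against 3.01%. Among 11054 gene windows with at least 3 complete positions, 2.33% had a lower level than Rian and 7.20% a lower level than Dlk1. The corresponding shares were 21.3% for Dio3, 35.4% for Rtl1 and 58.9% for Meg3, and Mirg had too few positions for this measure. All of these shares count complete positions alone. Of the 17 positions of the Meg3 promoter 2 were complete, and of the 14 at chr12:110277506-110277628 before Dio3 0 were. The ranks of Meg3 and Dio3 therefore describe mainly the other parts of their windows. The windows of 5 imprinted genes of chromosome 2 were at 75.0% ± 0.565 with DM-aKG and 75.7% ± 2.80 in controls over 287 complete positions (SD, n = 3 each). The cluster lay above them in all 6 libraries, and its treatment difference exceeded theirs by 2.16 points (exact permutation p = 0.8).

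No member passed the test over all genes. By limma on percent levels with Benjamini-Hochberg adjustment, 0 of 5 tested members and 0 of all 11054 windows (0.0%) had an adjusted p under 0.05. An unadjusted p under 0.05 was found in 0 of the 5 members and in 705 windows (6.38%). The differences were 2.59 points for Meg3 (95% interval -1.09 to 6.26), 2.0 for Rian (-4.76 to 8.76), 1.91 for Rtl1 (-1.60 to 5.41), -1.31 for Dlk1 (-9.86 to 7.23) and -3.33 for Dio3 (-9.23 to 2.57), and the smallest adjusted p was 0.739. All 5 intervals include 0. Single libraries moved these values. Without control replicate 1 the difference was 1.03 for Meg3, 0.957 for Rtl1 and -4.78 for Dlk1, and without control replicate 2 that of Dlk1 was 2.47. Without DM-aKG replicates 1, 2 and 3 in turn, that of Rian was 1.21, 4.18 and 0.611, and that of Dio3 was -5.94, -2.61 and -1.44. Rtl1 was at 1.0 without DM-aKG replicate 3, and Rian at 3.22 and 1.06 without control replicates 2 and 3. The members' median difference was 1.91 points and that of all windows 0.768, and 66.8% of all windows had a positive difference. Groups that did not overlap were found in 0 of the 5 members, against 13.9% of all windows, of which 11.5% had DM-aKG higher and 2.44% had it lower.

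Single changed positions were not called by this test on simulated data. When 200 of the 272327 positions were lowered by 10, 20 or 30 points there, the position test called 0 of them. Its lack of calls therefore does not show that single positions were unchanged. By limma 0 of the 122 complete positions passed, as did 0 of all 272327 (0.0%), with 9 of the 122 and 12230 of all (4.49%) at an unadjusted p under 0.05; on log2 odds limma called 407 of all positions and 0 in the members. DM-aKG lay wholly above control at 8 of the 122 positions (6.56%), against 4.63% of all positions, and wholly below it at 1 (0.820%), against 2.5%; in either direction 7.13% of all positions were so. The largest gap was in Dlk1 at chr12:109453651, with 83%, 80% and 100% in DM-aKG replicates 1, 2 and 3 and 40%, 50% and 50% in control replicates 1, 2 and 3 (limma adjusted p = 0.733). In Meg3 the cytosine at chr12:109546065 was at 100% in all 3 DM-aKG libraries and at 50%, 83% and 76% in the controls (limma adjusted p = 0.831). In Rtl1 that at chr12:109585939 was at 84%, 91% and 94% with DM-aKG and 74%, 78% and 68% in controls (limma adjusted p = 0.831). In the other direction, chr12:109459953 in Dlk1 was at 44%, 56% and 50% with DM-aKG and 71%, 100% and 100% in controls (limma adjusted p = 0.831). Among positions without overlap, Dlk1 thus held the largest gap in each direction. The cytosine 1 base from the first of these Dlk1 positions, at chr12:109453652, was at 67%, 100% and 100% with DM-aKG and 43%, 100% and 50% in controls. It was 24.7 points higher with DM-aKG, with overlap. Beside the second, chr12:109459952 was at 100%, 75% and 40% with DM-aKG. It had no value in any control, so the groups cannot be compared there. The cytosine at chr12:109459951, 2 bases from the second, was at 78%, 56% and 50% with DM-aKG and 71%, 100% and 100% in controls. It was 29 points lower with DM-aKG, with overlap (limma unadjusted p = 0.0442, adjusted p = 0.831).

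Joining positions no more than 500 bases apart gave 15 stretches in the members with at least 3 complete positions, a unit chosen after the values were seen. Their levels ran from 66.0% to 95.5%. The difference was positive in 12 and negative in 3, against 64.1% positive among all 30920 stretches, and the median was 2.94 points against 0.848. By limma 0 of the 15 and 0 of all passed the adjusted threshold (0.0%), and 1 of the 15 and 1678 of all (5.43%) had an unadjusted p under 0.05. On simulated data this test called 0 of 200 stretches lowered by 10 points and 120 of 200 lowered by 20 points. Its lack of calls therefore does not show that differences of 10 points or less were absent. DM-aKG lay wholly above control in 2 of the 15 (8.71% of all stretches) and wholly below it in 1 (2.54%). The 2 were the Meg3 stretch given above and 5 complete positions at chr12:109590860-109591000, past the end of the Mir431 hairpin and outside it, at 89.6%, 89.0% and 85.0% in DM-aKG replicates 1, 2 and 3 and 82.6%, 83.0% and 83.6% in control replicates 1, 2 and 3, and the 1 was the block inside Dlk1.

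**Figure D4:**
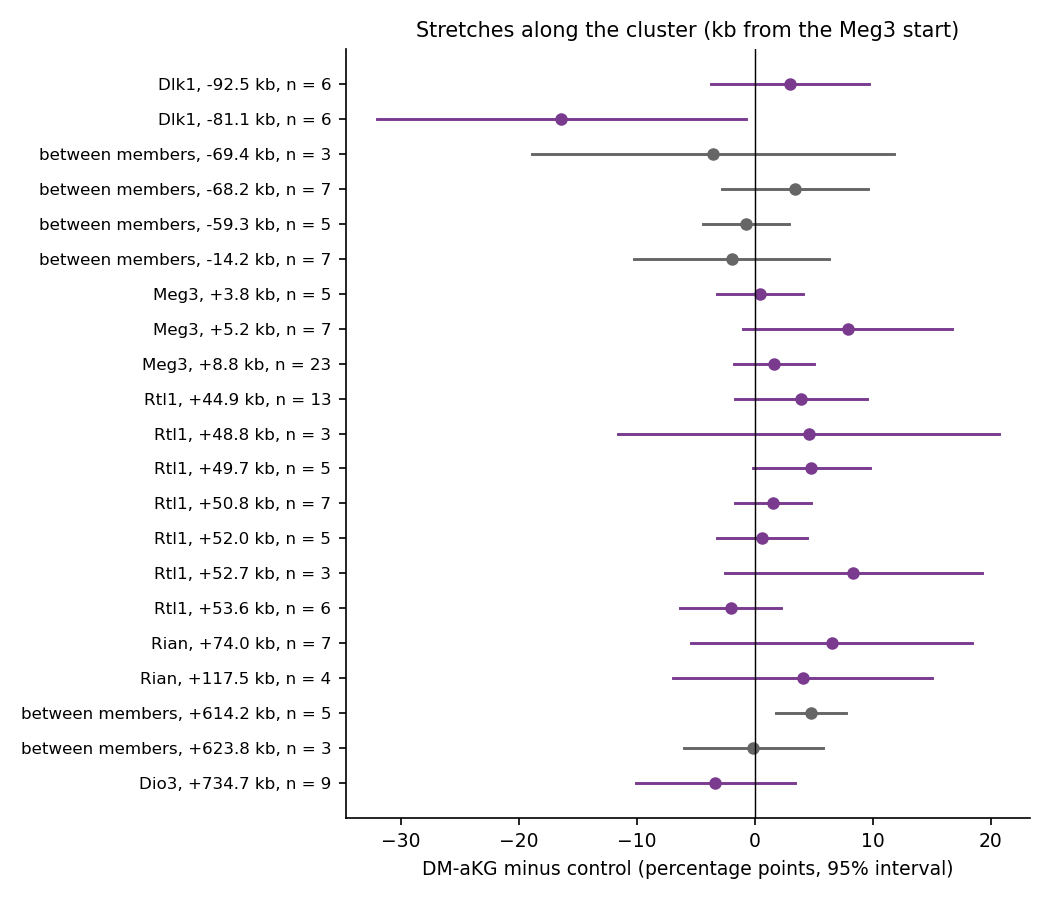
DM-aKG minus control difference in methylation level (percentage points, horizontal axis) for stretches along the cluster, ordered by distance from the Meg3 start in kb, with n complete positions each; points are estimates, lines 95% intervals from limma, purple marks members and grey the sequence between them. Of the member stretches, the intervals of 14 include 0, and that of the block inside Dlk1, at -16.4 points, does not.

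More positions of the cluster had a value in the DM-aKG libraries than in the controls. DM-aKG replicates 1, 2 and 3 had a value at 203, 218 and 206 of the 266 positions and control replicates 1, 2 and 3 at 166, 198 and 192. As shares these were 78.6% ± 2.98 and 69.7% ± 6.39 (SD, n = 3 each, exact permutation p = 0.1), and the groups did not overlap. The difference was 8.90 points, and 5.26 points without control replicate 1. The interval between Dlk1 and Meg3, which is outside the 266 positions, went the other way, as given above. On the rest of chromosome 12 the shares were 85.5% ± 0.362 with DM-aKG and 86.6% ± 2.20 in controls, with overlap. Relative to the rest of the chromosome, the share in the cluster was 9.93 points higher with DM-aKG (exact permutation p = 0.1) and 7.52 points higher without control replicate 1. These measures were chosen after the values were seen. Among 6341 gene windows with at least 20 positions, 3.04% had a share wholly higher with DM-aKG and 8.47% a share wholly lower. Of the members Dlk1 alone was wholly higher, with 33, 36 and 33 of 46 positions valued with DM-aKG against 32, 32 and 31 in controls. In Rian the counts were 37, 38 and 36 of 46 with DM-aKG and 21, 36 and 29 in controls, in Dio3 21, 20 and 24 of 27 against 12, 20 and 18, and in both the groups touched or overlapped. The 2 members with the most positions overlapped too. Meg3 had 58, 57 and 56 of 74 with DM-aKG and 51, 58 and 50 in controls. Rtl1 had 64, 76 and 66 of 86 with DM-aKG and 53, 62 and 69 in controls. A value appears when a position is read and its level is at or above 40%, and these cannot be told apart without coverage.

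**Figure D5:**
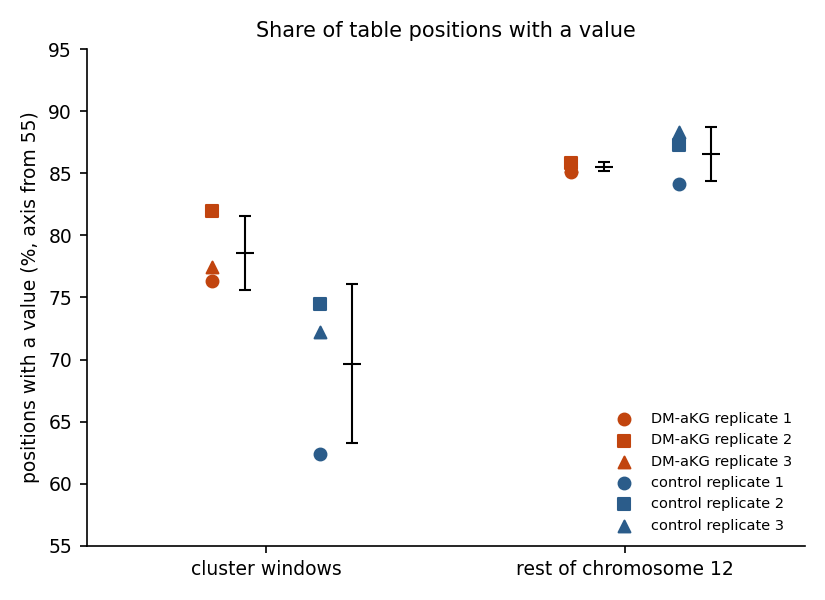
Share of table positions with a value (%, vertical axis, from 55) in the cluster windows and on the rest of chromosome 12, with points for libraries, DM-aKG left of control, while black marks show mean and SD (n = 3). In the cluster the 3 DM-aKG libraries, at 76.3% to 82.0%, lie above the 3 controls, at 62.4% to 74.4%, and on the rest of the chromosome the groups overlap.

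Other imprinted genes and the neighbours of the cluster gave no call. Of 21 tested genes among 22 other imprinted genes, 0 passed by limma in either direction and 1 had an unadjusted p under 0.05, with a median difference of 1.0 point and a range of -4.39 to 7.30 points, wider than that of the members. DM-aKG lay wholly above control in 3 of the 21, against 11.5% of all windows. Of 12 tested genes among 13 neighbours outside the cluster, 0 passed and 0 had an unadjusted p under 0.05, with differences from -0.926 to 3.42 points. Windows of 5 tested epithelial marker genes had a median difference of -2.01 points and those of 5 marker genes of other cell types 2.33 points, 0 passing in either list and 0 and 1 at an unadjusted p under 0.05. Methylation near a marker gene is not its expression, and the part of cell mixture in the differences was not tested.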

How the data were processed

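The 6 libraries, 3 DM-aKG and 3 control, were read by reduced representation bisulfite sequencing. The authors deposited 1 table with a percent of methylation per cytosine and library, rounded to whole numbers; per the submitters' processing notes the build was mm10 and CASAVA 1.8 and Novoalign 3.08.02 were used, in roles not given in the sources used here, as is the caller. The table has no coverage. From row 390209 on, control replicates 1 and 2 no longer line up with the other 4 libraries, and which columns hold the right positions is not known, so the rows before it, 47.9% of 813850, were used; chromosome 12 lies before that row. In RefSeq promoters 4199 of 4203 table positions fell on a CpG when the start column was counted from 1, so positions are 1-based.

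Gene windows with at least 3 complete positions, single positions and stretches were each tested over the whole table with limma 3.58.1 in R 4.3.3 on percent levels, with a variance trend and Benjamini-Hochberg adjustment at 0.05; per-library means were compared by exact permutation over 20 assignments. Percent levels were tested untransformed, with log2 odds as an alternative; the fits were tested on simulated data. The members, lists and tests were chosen with earlier results of these data known. The genes named are the 6 members, the positions named are the up to 3 largest gaps per direction whose groups do not overlap, and other lists are given as counts. The labels number the replicates without saying whether same-numbered libraries were paired, and the main tests treated them as unpaired.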

Additional observations from a re-analysis of the deposited data

How the results depend on the processing

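The direction was kept by the cluster mean under all 15 alternatives, which gave 0.206 to 7.84 points, and by Meg3 and Rtl1 under their 14 each. Their exact permutation p cannot go below 0.1, so it says nothing of stability. With single libraries left out Meg3 ranged from 1.03 to 3.55, Rtl1 from 0.957 to 2.52, Rian from 0.611 to 4.18 and Dio3 from -5.94 to -1.44, the lowest of these without DM-aKG replicate 1 (limma unadjusted p = 0.0265, adjusted p = 0.795). With a 0 counted as a level the cluster was 7.84 points higher, and Dlk1 and Dio3 turned to 3.22 and 11.9 points. The gap between the cluster and the rest of chromosome 12 turned to -0.230 points with neighbouring positions averaged, and ranged from -0.386 (without control replicate 1) to 1.28 with single libraries left out. The sign also changed with single libraries left out for Dlk1 (-4.78 to 2.47, positive without control replicate 2) and Mirg (-2.0 to 11.7, negative without control replicate 1 or DM-aKG replicate 3), and Rian was at -1.21 over every position with a value. Gene windows passing by limma numbered 1 with flanks of 0, 2000 or 10000 bases and 7 with a 0 counted as a level, and positions 407 on log2 odds and 1724 with a 0 as a level. No member window passed in any of the 17 fits, while 2 member positions passed in that last one, both valued in all 3 libraries of 1 group and in none of the other. The cause of these changes was not tested. Same-numbered libraries deviated together by r of -0.00860 to 0.0189 over all complete positions. With a replicate block the cluster difference stayed at 1.45 points (exact sign-flip p = 0.5), its gap to chromosome 12 at 0.400 (p = 1), and 0 windows and 0 positions passed.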

Other observations

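Between Mirg and Dio3 the table held 21 positions, 9 of them complete. One stretch there, 5 complete positions at chr12:110155135-110155311 within the span of the lncRNA gene 3110009F21Rik, was at 100%, 100% and 96.4% in DM-aKG replicates 1, 2 and 3 and at 93.2%, 95.2% and 93.6% in control replicates 1, 2 and 3. The difference of 4.80 points had a 95% interval of 1.84 to 7.76 (limma unadjusted p = 0.00591, adjusted p = 0.829). It was singled out after its values were seen.

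Positions with a value in at least 1 DM-aKG library and in no control made up 31 of the 266 cluster positions (11.7%), against 3.88% on the rest of chromosome 12. The reverse pattern was found at 16 (6.02%), against 6.10%. In Meg3, 4 positions at chr12:109541812-109541980, just past the start, were at 100% in DM-aKG replicates 1 and 2 and without a value in the other 4 libraries.

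Positions 1 base apart differed in mean level by a median of 3.17 points over 47 complete pairs of the cluster. On the rest of chromosome 12 the median was 2.33 points over 6678 pairs. Where CpGs adjoin, such a pair can also join cytosines of neighbouring CpGs, so not every pair is the opposite strands of a single CpG. Across the 122 complete positions, libraries correlated with each other at 0.441 to 0.649, a description over positions that share libraries.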
